A study of Mus musculus with 8 samples.

Results

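The 10 genes described here are the mouse fibroblast growth factor (FGF) receptors Fgfr1, Fgfr2, Fgfr3 and Fgfr4, the decoy receptor Fgfrl1, the Klotho co-receptors Kl and Klb, and the leucine-rich repeat modulators Flrt1, Flrt2 and Flrt3. They were chosen by name, and all 10 were found among the 21291 gene rows of the deposited expression table. Libraries of polyA-selected RNA came from both kidneys of each embryo at E14.5, with 4 control and 4 mutant embryos. Controls carried Six2-GFPcre tg/+, a single null allele of Etv4 (Etv4+/-) and Etv5fl/fl. Mutants carried the same transgene and floxed alleles with no functional Etv4 allele (Etv4-/-). Both groups thus had the Cre transgene, which acts in nephron progenitors and passes the recombined alleles to the cells they form, and the labelled difference was at Etv4 alone. The Etv4 null allele is not limited to nephron progenitors by the labels. The series asks what removal of Etv4 and Etv5, a pair of ETS-family transcription factors, does in these cells.

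FGF receptors are receptor tyrosine kinases that bind FGF ligands together with heparan sulfate, or with a Klotho protein for the endocrine FGFs, and signal through the adaptor Frs2 to the ERK pathway. Fgfrl1 has an extracellular part that binds FGFs but lacks the tyrosine kinase domain, and FLRT proteins are transmembrane proteins that bind FGF receptors, Unc5 receptors and latrophilins. In the fetal kidney, Fgfr1 and Fgfr2 act in the metanephric mesenchyme, Fgfr2 also acts in the ureteric bud, and Fgfrl1 is needed for nephron formation. Etv4 and Etv5 are known as transcriptional targets of FGF and RET signalling, so the receptors lie upstream of the factors that were removed.

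None of the members passed the test over all 8 libraries. Of the 9 that could be tested, 0 had a Benjamini-Hochberg adjusted p below 0.05 by limma, where 0.301% of 14974 genes did, and limma voom also called 0. All calls over 8 libraries split into 0.0801% of genes higher and 0.22% lower in mutants. At an unadjusted p below 0.05 there were 4 of 9 members and 12% of all genes tested. Klb did not reach the filter of 10 normalized counts in at least 4 libraries. Flrt2 was higher and Fgfrl1 lower in every mutant library than in every control, so groups did not overlap for 2 of 9 members, against 8.6% of all genes (4.17% higher and 4.43% lower). When control 4 was left out, Fgfr1 fell and Flrt2 rose in the mutants, and 2 of 9 members were called, where 1.08% of 14961 genes were (0.354% higher and 0.722% lower). At an unadjusted p below 0.05 there were then 7 of 9 members and 18.2% of all genes.

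Control 4 stood apart from the other libraries. Its estimated counts summed to 15515139, against 34114519 to 39548327 in the others, and 18.4% of them fell on Lars2, against 0.138% to 0.476%. The mean normalized counts in the authors' deposited table of 644 genes lay within 0.1% of the mean over the 7 other libraries for 626 of 628 genes matched by symbol, and for 0 of 628 when all 8 were averaged. Fold changes of the members and counts of calls are therefore given with and without control 4. Etv4, the check of the labels, ranged over controls from 2311 to 2816 normalized counts and over mutants from 164 to 294, and Etv5 from 3006 to 4085 and from 1487 to 2657. Kidney markers were present in every library, with summed counts of 10 nephron progenitor genes between 6329 and 36276 and of 8 ureteric trunk genes between 18611 and 27386. Summed adrenal cortex (178 to 349), neural (324 to 815) and liver markers (69.5 to 1189) were low, and erythroid markers ran from 178348 to 403456. Counts of 4 Y-linked genes summed to at least 1343 in every control and at most 24 in every mutant, so for any value given here genotype cannot be told apart from sex. Which embryos were littermates of which is not labelled, and p-values measure the spread between these libraries only.

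The stretches just upstream of Flrt2 and Fgfrl1, the members whose groups did not overlap, are shown because ETS factors bind a GGAA core. They are the 250 bases before each RefSeq gene start on GRCm38.p6, both on the plus strand, at chr12:95691976-95692225 for Flrt2 and chr5:108693979-108694228 for Fgfrl1. Neither overlaps an annotated exon, and the Fgfrl1 window lies in an intron of a transcript that starts further upstream. Capitals mark GGAA, or its reverse complement TTCC.
Flrt2: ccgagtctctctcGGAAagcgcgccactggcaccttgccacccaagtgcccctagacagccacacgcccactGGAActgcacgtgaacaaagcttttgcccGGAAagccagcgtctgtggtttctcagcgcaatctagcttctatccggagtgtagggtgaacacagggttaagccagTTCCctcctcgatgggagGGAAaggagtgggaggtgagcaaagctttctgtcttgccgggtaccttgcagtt
Fgfrl1: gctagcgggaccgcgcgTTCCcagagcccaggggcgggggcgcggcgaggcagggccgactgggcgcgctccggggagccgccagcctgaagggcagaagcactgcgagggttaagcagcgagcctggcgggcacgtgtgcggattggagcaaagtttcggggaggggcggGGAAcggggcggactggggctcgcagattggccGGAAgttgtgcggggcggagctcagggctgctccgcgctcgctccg
The Flrt2 window held 5 matches to GGAA on either strand and the Fgfrl1 window 3, where 93.5% of 32841 such windows held a match and the median was 3. The longer CCGGAA, which contains the core, occurred in both windows and in 12% of all windows. CCGGAAGT was found in the Fgfrl1 window and in 2.88% of all windows, and its letters are not in the Flrt2 window. Entries were also found for Fgfr2, Fgfr3, Fgfr4, Kl, Klb and Flrt3, of which the Fgfr4 window held CCGGAA and none held CCGGAAGT. The members not matched were Fgfr1 and Flrt1.

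**Figure D1:**
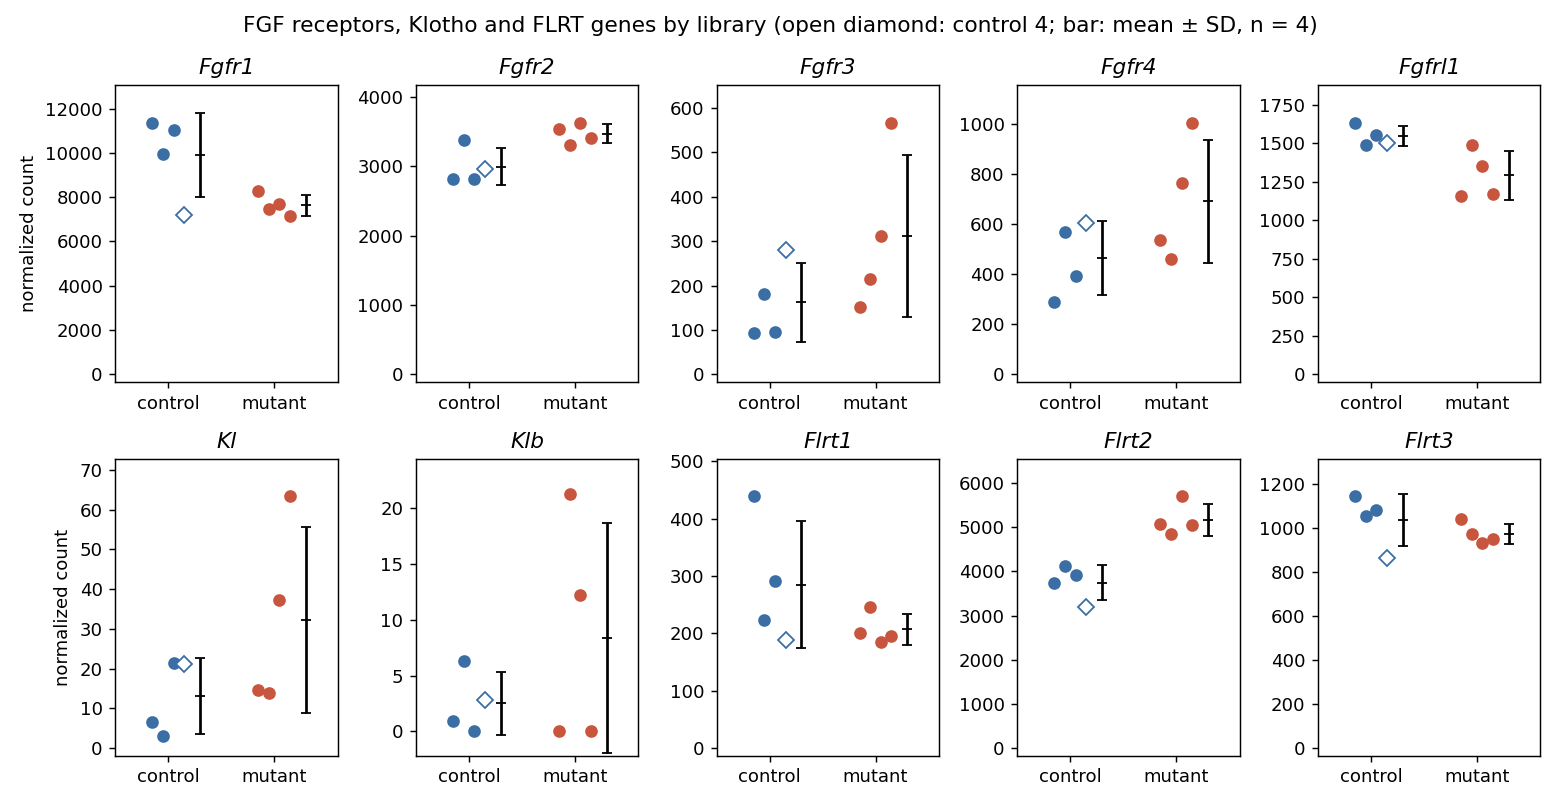
Normalized counts of the 10 genes (vertical axes, linear) in each control and mutant library (points, control 4 as an open diamond), with the mean and SD of each group of 4 (bars). The 4 mutant libraries lie above every control for Flrt2 and below every control for Fgfrl1, and control 4 lies within the mutants' range for Fgfr1.

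Fgfr1, the receptor with the highest level per length in these kidneys, lies on chromosome 8 (ENSMUSG00000031565, 25513654 to 25575718, plus strand, GRCm38). It had 11365, 9958, 11027 and 7185 normalized counts in controls 1 to 4, against 8261, 7463, 7678 and 7148 in mutants 1 to 4. Controls 1, 2 and 3 lay above every mutant library, while control 4 lay within the mutants' range. Over all 8 libraries the log2 fold change, on the scale of log2(normalized count + 1) used throughout, was −0.35 (SE 0.14, 95% interval −0.66 to −0.044, limma adjusted p = 0.341). Without control 4 Fgfr1 fell, from 10783 ± 735 to 7638 ± 469 normalized counts (mean ± SD, n = 3 and 4), a log2 fold change of −0.50 with SE 0.074 (limma adjusted p = 0.0211). It passed in 8 of 14 fits that left control 4 out and in 0 of 18 other fits that kept it, and the estimates ranged from −0.55 to −0.22. With control 1 or control 3 left out beside control 4, the limma adjusted p was 0.148 or 0.144, and with mutant 2 or mutant 3 it was 0.0606 or 0.0693. Library names hold a number of unstated meaning that mutants 1 and 2 share with controls 1 and 2, and mutant 4 with control 4. The log2 difference was −0.44 in the first set of 4 libraries and −0.0073 between mutant 4 and control 4.

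Summed nephron progenitor and ureteric tip markers were lower in the mutants, like Fgfr1 in controls 1 to 3 against the mutants. The summed level of 10 nephron progenitor markers was 20527 to 36276 in controls, lowest in control 4, and 6329 to 12368 in mutants. None of the 10 was at 0, and 3 of them were lower by limma. Tmem100 went the other way, with means of 154 in controls and 190 in mutants (log2 fold change 0.25, limma adjusted p = 0.721). The groups overlapped for Tmem100, Gdnf and Eya1. The 6 ureteric tip markers summed to 13594 to 18680.1 in controls, again lowest in control 4, and to 4916 to 9573 in mutants. None of them was at 0, and 2 were lower by limma, Etv4 and Gfra1 (Gfra1 −1.24, limma adjusted p = 0.0432). Since Etv4 is the gene removed in the mutants, its call and part of the fall in this sum were set by genotype. Each of the 6 was lower in every mutant than in every control. The part of nephron progenitor and ureteric tip markers in the Fgfr1 values was not tested. The nephron progenitor sums, 36276, 24490, 32133 and 20527 in controls 1 to 4, ranked the controls as Fgfr1 did. So did those of stromal markers (8 genes, led by Col1a1), at 167125, 110915.5, 139837 and 78505. For stromal markers the mutants, at 137229 to 151338, lay within the range of controls 1 to 3. For Fgfr1 and the nephron progenitor markers they lay below it. The part of stromal markers in the Fgfr1 values was not tested either. In whole kidneys, fewer cells of a type and less RNA per cell cannot be told apart. The antisense gene Gm16159 shares exonic bases with Fgfr1. Since the sources used here do not state whether counting used strand, its reads cannot be told apart from those of Fgfr1 over these bases.

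Fgfr2 (ENSMUSG00000030849, chromosome 7, 130162451 to 133123350, minus strand), whose epithelial and mesenchymal isoforms bind different FGFs, had 2817, 3383, 2817 and 2961 normalized counts in controls 1 to 4. In mutants 1 to 4 it had 3530.03, 3309.5, 3627 and 3409.8. Control 2 lay within the mutants' range, and the other 3 controls lay below every mutant. The log2 fold change was 0.22 (SE 0.081, 95% interval 0.035 to 0.40, limma adjusted p = 0.323), or 0.21 (limma adjusted p = 0.218) without control 4, and it ranged from 0.15 to 0.35 over 32 other fits, of which 0 passed. The counts are per gene and do not separate the isoforms, and some exonic bases are shared with Ctbp2 on the same strand. The annotated span covers many other genes and runs far past the RefSeq gene start, whose upstream window lies at 130266809 to 130267058. The exon length used for levels and shares of Fgfr2 follows this extended gene model.

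The ratio of Fgfr1 to Fgfr2 counts within a library does not depend on scaling between libraries. It was 4.04, 2.94, 3.92 and 2.43 in controls 1 to 4, against 2.34, 2.26, 2.12 and 2.10 in mutants 1 to 4, uncorrected for length. All 4 mutants lay below all 4 controls, with a narrow gap to control 4, and the controls were more spread (3.33 ± 0.78, SD, n = 4) than the mutants (2.20 ± 0.12). As a share of the level per exon length summed over the 4 kinase receptors, Fgfr1 took 68.8% ± 7.47 in controls and 57.5% ± 5.04 in mutants (SD, n = 4 each). The share of Fgfr2 was 20.2% ± 2.70 and 25.0% ± 1.146, that of Fgfr4 9.31% ± 3.74 and 14.3% ± 4.42, and that of Fgfr3 1.65% ± 1.098 and 3.18% ± 1.73. These shares depend on the gene model: by the longest coding transcript, Fgfr4 took 5.08% ± 2.11 in controls and 7.96% ± 2.67 in mutants, and Fgfr1 68.7% ± 6.64 and 58.3% ± 3.71. Fgfr1 took the highest share in each of the 8 libraries, from 51.1% in mutant 4 to 75.8% in control 1. These ratios and shares were chosen after the values were seen and were given no test.

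**Figure D2:**
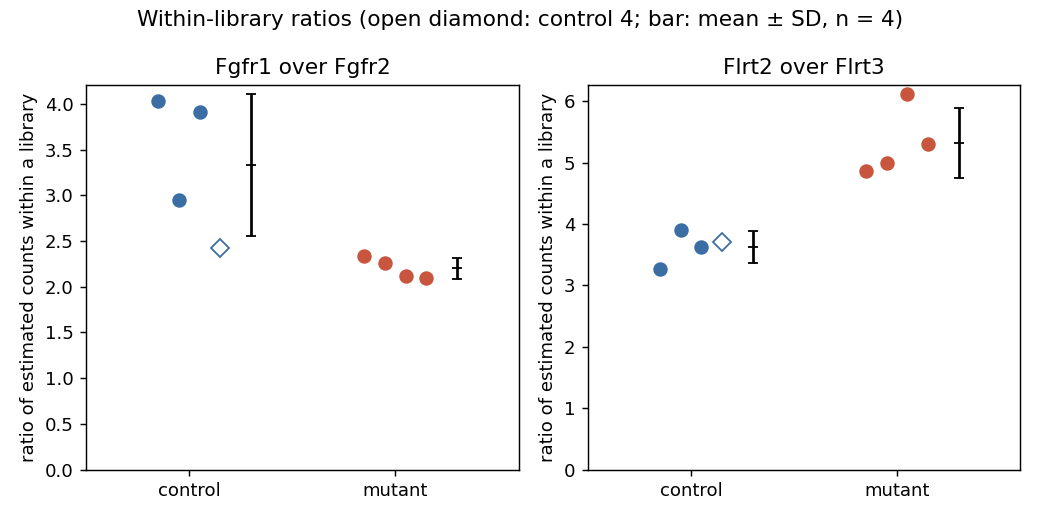
Ratio of estimated counts within each library (vertical axes) for Fgfr1 over Fgfr2 and Flrt2 over Flrt3, in controls and mutants (points, control 4 as an open diamond), with the mean and SD of each group of 4 (bars). The Fgfr1 to Fgfr2 ratio is 2.43 to 4.04 in controls and 2.10 to 2.34 in mutants, and the Flrt2 to Flrt3 ratio is 3.27 to 3.90 in controls and 4.86 to 6.12 in mutants.

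Fgfr3 and Fgfr4 were less abundant and varied widely within both groups. Fgfr3 (ENSMUSG00000054252, chromosome 5, 33721674 to 33737068, plus strand) had 92.1, 182, 95.05 and 279.5 normalized counts in controls 1 to 4, against 153, 214, 311 and 567 in mutants 1 to 4. Mutant 4 was the highest library, and control 4 lay above mutants 1 and 2. The log2 fold change was 0.92 (SE 0.46, 95% interval −0.10 to 1.94, limma adjusted p = 0.466), or 1.23 (SE 0.42, limma adjusted p = 0.175) without control 4 and 0.57 without mutant 4. Fgfr3 was the single member in the authors' deposited table, which gives it a log2 fold change of 1.34 (SE 0.395) and an adjusted p of 0.0176. In the authors' deposited table the largest adjusted p is 0.0498 and the smallest absolute log2 fold change 0.50, which exceeds the size of the estimates without control 4 for Fgfr1 (−0.495) and Flrt2 (0.40), and the sources used here do not state how its genes were chosen. The gene model G630022F23Rik, on the opposite strand, shares exonic bases with Fgfr3.

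Fgfr4 (ENSMUSG00000005320, chromosome 13, 55152640 to 55168759, plus strand), a receptor that works with Klotho proteins for endocrine FGFs, had 291, 570.2, 392 and 603 normalized counts in controls 1 to 4. In mutants 1 to 4 it had 537, 459, 766 and 1006. Mutants 3 and 4 lay above every control, and mutants 1 and 2 lay within the controls' range. The estimate was a log2 fold change of 0.57 (SE 0.29, 95% interval −0.082 to 1.22, limma adjusted p = 0.478), or 0.72 (SE 0.29, limma adjusted p = 0.240) without control 4. It was 0.36 without control 1 and 0.37 without mutant 4.

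Kl (ENSMUSG00000058488, chromosome 5, 150952607 to 150993817, plus strand), the co-receptor for the endocrine ligand FGF23 that the mature kidney makes in its distal tubules, was present at low counts. It had 6.46, 3.16, 21.4 and 21.1 normalized counts in controls 1 to 4, against 14.7, 13.9, 37.2 and 63.3 in mutants 1 to 4. Mutants 3 and 4 were the highest libraries, and mutants 1 and 2 lay within the controls' range. The log2 fold change was 1.31 (SE 0.73, 95% interval −0.32 to 2.93, limma adjusted p = 0.515), or 1.66 (SE 0.76, limma adjusted p = 0.286) without control 4 and 0.83 without control 2. Klb (ENSMUSG00000029195, chromosome 5, 65348314 to 65384007, plus strand), the co-receptor for the endocrine ligands FGF15 and FGF21, had 1, 8, 0 and 1 estimated counts in controls 1 to 4, against 0, 26, 14 and 0 in mutants 1 to 4. Its counts were at 0 in 1 control and 2 mutants, and no difference was detectable at this depth.

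Proximal tubule markers moved with Fgfr3 and Fgfr4, and less closely with Kl. The summed level of 9 proximal tubule markers was 536, 1271, 948 and 3944 in controls 1 to 4, against 1282, 1408, 4495 and 10349.8 in mutants 1 to 4. Control 4, mutant 3 and mutant 4 were the highest libraries for these markers and for Fgfr4, and mutants 3 and 4 with control 4 also for Fgfr3. Mutants 3 and 4 were the highest for Kl, which was alike in controls 3 and 4 (21.4 and 21.1 normalized counts). Of the list, 4 genes could be tested, with positive fold changes and 0 past the threshold, and Slc34a1, Slc5a2, Fbp1 and Spp2 were at 0 in at least 1 library. The 7 loop and distal markers summed to 940.4 to 3431 in controls and 1269.6 to 4046 in mutants, with Slc12a1, Umod, Slc12a3 and Pvalb at 0 in at least 1 library. Of these 7 genes, 3 had a higher mean in mutants than in controls.

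With the mean of 14 tubule and podocyte markers as a covariate, the log2 fold changes were 0.35 for Fgfr3 (limma adjusted p = 0.367), 0.21 for Fgfr4 (limma adjusted p = 0.429) and 0.76 for Kl (limma adjusted p = 0.578). Among mutants 1 and 2 and controls 1 and 2 the log2 differences were 0.48, 0.29 and 1.46, and between mutant 4 and control 4 they were 1.02, 0.74 and 1.54. The sign was thus positive in both comparisons for each of the 3 genes, the second with 1 library on each side. The mean of the 14 markers, centred over the 8 libraries, was −0.83 and −0.62 in mutants 1 and 2. It was −2.04 and −0.33 in controls 1 and 2, and 2.24 in mutant 4 against 1.29 in control 4. The shared sign therefore does not separate genotype from tubule content.

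**Figure D3:**
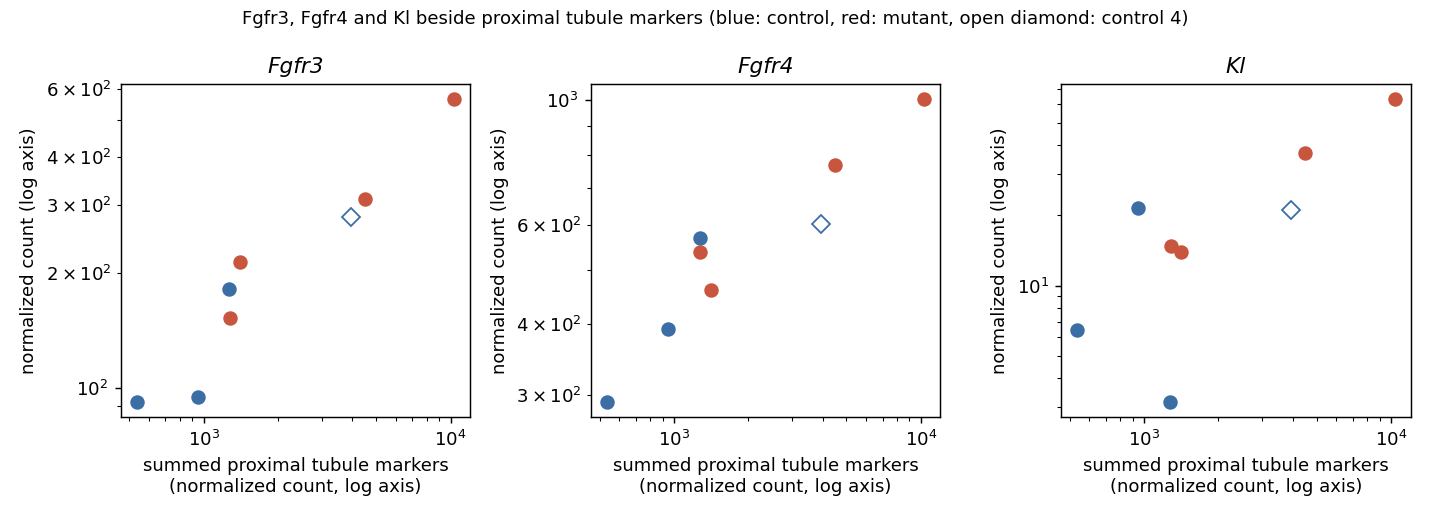
Normalized counts of Fgfr3, Fgfr4 and Kl (vertical axes, log) against the summed normalized counts of 9 proximal tubule markers (horizontal axes, log), 1 point per library, with controls in blue, mutants in red and control 4 as an open diamond. Mutant 4, with 10349.8 marker counts, is the highest library for each of the 3 genes.

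Fgfrl1 (ENSMUSG00000008090, chromosome 5, 108692382 to 108706924, plus strand) was lower in each mutant library than in each control. It had 1633, 1491, 1552 and 1503 normalized counts in controls 1 to 4, against 1159.8, 1486, 1351 and 1167 in mutants 1 to 4. Mutant 2 lay just under control 2, and the gap between the groups was small beside the spread among the mutants. Its log2 fold change was −0.27 (SE 0.098, 95% interval −0.49 to −0.046, limma adjusted p = 0.314), or −0.28 (limma adjusted p = 0.201) without control 4, and it ranged from −0.35 to −0.13 over 32 other fits, of which 0 passed. The difference was −0.25 among mutants 1 and 2 and controls 1 and 2 and −0.36 between mutant 4 and control 4.

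Flrt2 (ENSMUSG00000047414, chromosome 12, 95692226 to 95785215, plus strand), a cell-surface protein that also acts as a repulsive ligand for Unc5 receptors, was the member with the smallest p. It had 3739.7, 4112, 3924 and 3205 normalized counts in controls 1 to 4, against 5062, 4848, 5697 and 5040.3 in mutants 1 to 4. Every mutant library lay above every control, and control 4 was the lowest of the 8. The log2 fold change was 0.47 (SE 0.094, 95% interval 0.26 to 0.68), and it missed the threshold over all genes (limma adjusted p = 0.0853). Without control 4 Flrt2 rose by 0.40 (SE 0.074, limma adjusted p = 0.0436), from 3925 ± 186 to 5162 ± 369.5 normalized counts (mean ± SD, n = 3 and 4). It passed in 4 of 14 fits that left control 4 out and in 1 of 18 other fits that kept it. With control 1 or control 3 left out beside control 4, the limma adjusted p was 0.214 or 0.20, and with mutant 1, 2 or 3 it was 0.0612, 0.0705 or 0.110. The difference was 0.34 among mutants 1 and 2 and controls 1 and 2 and 0.65 between mutant 4 and control 4. Summed endothelial markers (7 genes, none at 0) were 14137 to 18544 in controls and 19449 to 22484 in mutants, with all 7 fold changes positive and 0 past the threshold. Summed macrophage markers (7 genes, 1782 to 2701 against 2746 to 3397) and early nephron markers (9 genes, 28052 to 40570.3 against 43661 to 52071) were also higher in every mutant, with none at 0 and 0 past the threshold (2 of each list higher without control 4). Their part in the Flrt2 values was not tested.

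Flrt1 and Flrt3, the paralogs of Flrt2, had negative fold changes and did not pass. Flrt1 (ENSMUSG00000047787, chromosome 19, 7092001 to 7105729, minus strand) lies within the span of Macrod1 on the opposite strand, with no exon in common. It had 438, 223, 291 and 188 normalized counts in controls 1 to 4, against 199.8, 246, 185 and 196 in mutants 1 to 4, so that controls 2 and 4 lay within the mutants' range. Its estimate was −0.39 (SE 0.25, limma adjusted p = 0.566), or −0.57 (SE 0.23, limma adjusted p = 0.2303) without control 4 and −0.16 without control 1, the highest library. Flrt3 (ENSMUSG00000051379, chromosome 2, 140650914 to 140671469, minus strand) likewise lies within the span of Macrod2. It had 1145, 1054, 1084 and 866 normalized counts in controls 1 to 4, against 1041, 972, 931 and 952 in mutants 1 to 4. Controls 1, 2 and 3 lay above all mutants and control 4 below them, and the log2 fold change was −0.084 (SE 0.10, 95% interval −0.32 to 0.15, limma adjusted p = 0.792). With scaling by total count, which moved the median of all genes from 0.0087 to 0.14, it was 0.048. It was −0.17 (limma adjusted p = 0.307) without control 4 and −0.037 without control 1. Without control 4, Fgfr1 and Flrt3 joined Flrt2 and Fgfrl1 as members whose groups did not overlap, 4 of 9 against 17.3% of all genes (8.62% higher and 8.7% lower).

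The ratio of Flrt2 to Flrt3 counts was 3.27, 3.90, 3.62 and 3.70 in controls 1 to 4, against 4.86, 4.99, 6.12 and 5.30 in mutants 1 to 4. This ratio, also chosen after the values were seen, did not overlap between the groups with control 4 included. The ratio of Flrt2 to Flrt1 was 8.53 to 18.5 in controls and 19.7 to 30.9 in mutants.

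**Figure D4:**
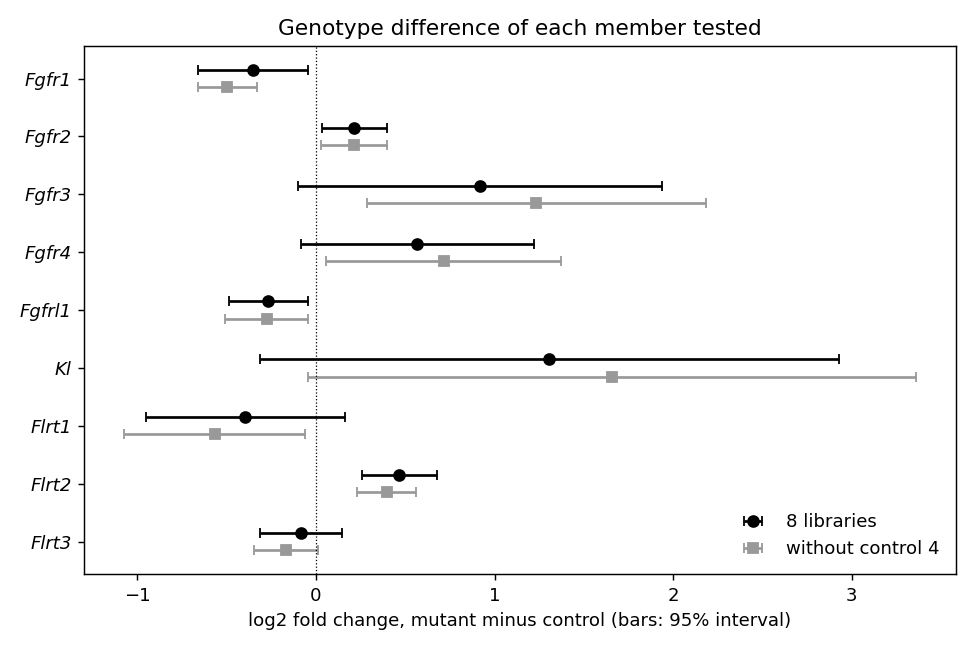
Log2 fold change, mutant minus control, with its 95% interval (horizontal axis) for the 9 members tested, over 8 libraries (black) and without control 4 (grey). Without control 4 the interval of Fgfr1 runs from −0.66 to −0.33, against −0.66 to −0.044 with it, and that of Flrt2 from 0.23 to 0.56, against 0.26 to 0.68.

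Levels were compared between genes as normalized counts per 1000 bases of annotated exon. In controls Fgfr1 was highest (1001 ± 192, SD, n = 4), followed by Fgfrl1 (555 ± 23.2), Flrt2 (485 ± 50.7), Fgfr2 (289.9 ± 26.0), Flrt3 (213 ± 24.7) and Fgfr4 (131 ± 41.8). Neighbours from Fgfr1 to Flrt3 did not overlap, and Fgfr4 lay below Flrt3 in every control. Flrt1 (48.5 ± 18.9) and Fgfr3 (22.6 ± 12.4) overlapped, as did Kl (1.397 ± 1.03) and Klb (0.55 ± 0.61). In mutants Flrt2 (669 ± 47.9) stood above Fgfrl1 (464 ± 56.5) without overlap and overlapped with Fgfr1 (773 ± 47.5). Fgfr4 (195.5 ± 69.6) overlapped with Flrt3 (200.2 ± 9.78) in mutants, and Fgfr3 (43.5 ± 25.5) with Flrt1 (35.2 ± 4.65). Per base of the longest coding transcript, Fgfr2 ranked above Flrt2 and Fgfrl1, and Fgfr3 above Flrt1, in the mean over 8 libraries, so those ranks depend on the gene model.

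**Figure D5:**
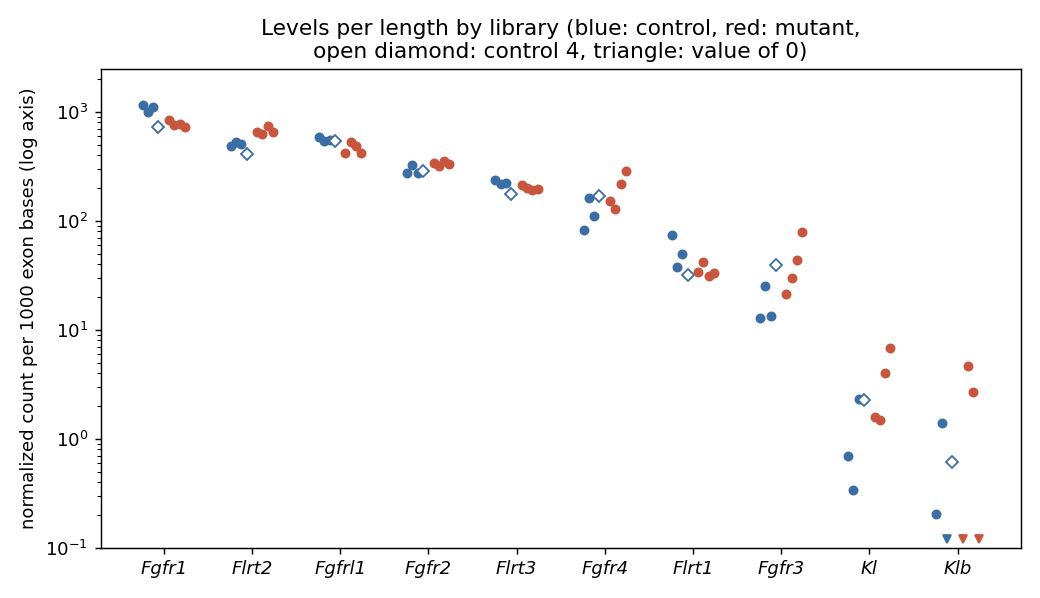
Normalized counts per 1000 exon bases (vertical axis, log) of the 10 genes in each control and mutant library, ordered by their mean over 8 libraries, with triangles for values of 0. Fgfr1 lies between 724 and 1151 and Kl between 0.34 and 6.79.

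The named genes whose log2 values followed each member most closely over the 8 libraries are given by Pearson's r, as a description with no test, and all points share the same libraries and scaling. For Fgfr1 they were Amot (0.982), Tshz2 (0.981) and Fgd1 (0.979), and for Fgfr2 they were Osbpl9 (0.983), Rbck1 (0.978) and Stum (0.975). Fgfr3 was followed by Sost (0.986), Krt8 (0.984) and Glud1 (0.982), and Fgfr4 by Snx2 (0.993), Agpat3 (0.993) and Fmnl1 (0.992). Fgfrl1 was followed less closely, by Rnls (0.940), Cdk5r1 (0.933) and Chic1 (0.926), and Kl by Wfikkn1 (0.983), Pbld1 (0.974) and Gcgr (0.969). For Flrt1 they were Meox2 (0.966), Prpf38b (0.965) and Znrf1 (0.960), for Flrt2 Scube3 (0.988), Raver2 (0.987) and Ptgfrn (0.984), and for Flrt3 Magt1 (0.981), Disp1 (0.981) and Git1 (0.978). Among members, the highest values were between Fgfr3 and Fgfr4 (0.934) and between Fgfr1 and Flrt3 (0.899), and Fgfr1 ran opposite to Fgfr3 (−0.862).

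Ligands and intracellular genes of the pathway were taken from lists. Of 18 FGF ligands 10 could be tested, of which 1 fell and 0 rose, with a median log2 fold change of −0.21 against 0.0087 over all genes tested. Without control 4, 2 fell and the median was −0.43, against −0.0027 over all genes. The second was Fgf10, named after its values were seen and known as a mesenchymal ligand of Fgfr2, at −1.03 (SE 0.20, limma adjusted p = 0.0450), against −0.89 (limma adjusted p = 0.121) over 8 libraries. The ligand that fell over 8 libraries was Fgf20, made by nephron progenitors, from 168 ± 17.9 to 32.4 ± 20.5 normalized counts (SD, n = 4 each), a log2 fold change of −2.53 with SE 0.40 (limma adjusted p = 0.0386). Fgf20 passed in 14 of 32 other fits, and its limma adjusted p was 0.157, 0.0769, 0.168, 0.0868, 0.132 and 0.0871 without control 1, control 2, control 3, mutant 2, mutant 3 and mutant 4. Among 22 transducers between receptor and ERK 0 passed in either direction and the median was −0.025 (0 passing and −0.029 without control 4). Those with the smallest p were the adaptor Gab2 (0.27, SE 0.095, limma adjusted p = 0.288) and the kinase Braf (−0.36, SE 0.13, limma adjusted p = 0.308).

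Of 10 tested feedback inhibitors 1 fell, 0 rose and the median was −0.35 (1, 0 and −0.45 without control 4). The gene that fell was Spry4, a Sprouty protein that damps signalling from receptor tyrosine kinases, from 595 ± 79.9 to 274.5 ± 43.5 normalized counts (log2 fold change −1.12, SE 0.16, limma adjusted p = 0.0219). Spry4 passed in 17 of 32 other fits, and its limma adjusted p was 0.108, 0.126, 0.0562, 0.0737 and 0.0657 without control 1, control 3, mutant 1, mutant 2 and mutant 3. That these genes were lower was known from earlier results of the same libraries, and their values are no independent evidence of direction.

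Heparan sulfate carriers and enzymes (23 tested) had a median log2 fold change of 0.056, and 0 passed. Without control 4 the median was −0.032 and 1 fell, Sulf2, a second extracellular sulfatase named after its values were seen (−0.83, SE 0.13, limma adjusted p = 0.0265, against −0.63 and 0.246 over 8 libraries). Gpc3, a glypican of the cell surface, averaged 13932 ± 2255 normalized counts in controls against 8307 ± 1032 in mutants (log2 fold change −0.74, SE 0.14, limma adjusted p = 0.0734). Sulf1, a sulfatase that trims heparan sulfate outside the cell, had 593 ± 123 and 958 ± 129 (0.71, SE 0.16, limma adjusted p = 0.111). The groups did not overlap for either gene. Among 8 binding partners of FLRT proteins 0 passed and the median was −0.12 (0 and −0.15 without control 4). Those with the smallest p were the netrin receptors Unc5b (0.36, SE 0.11, limma adjusted p = 0.240) and Unc5c (0.26, SE 0.15, limma adjusted p = 0.521).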

How the data were processed

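Per the labels' protocols, libraries were polyA-enriched and read from both ends; libraries were grouped and numbered by their titles. The submitters' processing notes name fastp 0.23.2, kallisto 0.46.0, DESeq2 1.40.2 and build mm10, whose roles the sources used here do not state. The deposited log2 values behave as the logarithm of an estimated count with 1 added, uncorrected for depth: back-transformed, 73.4% of them were whole within 1e-06. The analysis had been planned for depth-corrected values. The authors' table of 644 genes, per the file headers, gives p-values, a score (the test statistic), log2 fold changes and, as a signal, the mean normalized count.

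Estimated counts were divided by median-of-ratios size factors (0.361 in control 4, 1.07 to 1.27 elsewhere), recomputed whenever libraries were left out. Genes reaching 10 normalized counts in 4 libraries were analysed with limma 3.58.1 (R 4.3.3; trend, genotype only, two-sided, Benjamini-Hochberg over 14974 genes, threshold 0.05). Fold changes on the log2(value + 1) scale understate the change of low genes. The members, lists and tests were chosen with earlier results of these data known. Named genes are the members, Etv4, Etv5, up to 4 genes past the threshold in each pathway list or else the 2 with the smallest p, and the 3 genes most correlated with each member. Positions and exon lengths are from GENCODE M21 (GRCm38), and upstream windows from RefSeq, which held 8 of 10 members. Alternatives were other filters, pseudocounts, scalings, voom, blocks, a tubule covariate and left-out libraries. The fits that combine leaving out control 4 with a further change were chosen after seeing the data, apart from the planned fits that also leave out mutant 4. The method was tested on simulated data with 4 libraries per group. It recovered 16% of genes with a true log2 fold change of 0.4 and 68% of those at 1. Of all calls 6.87% were false. A member that was not called may thus still differ. Figures were drawn with matplotlib 3.10.9.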

Additional observations from a re-analysis of the deposited data

How the results depend on the processing

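Over all 8 libraries 0 members were called, and 0 to 2 with 1 library left out. There were 2 without control 4 and mutant 4, 1 without control 4, mutant 3 and mutant 4 (Fgfr1), and 1 with the tubule and podocyte covariate (Flrt2). Among fits without control 4 chosen after seeing the data there was 1 with voom, 2 with total count scaling, 1 with the covariate, 2 without control 2 as well, 1 without mutant 1 as well, and 0 without control 1, control 3, mutant 2 or mutant 3 as well or with no trend. Of all genes 45 were called, and 2 to 161 with 1 library left out. The count was 11 with total count scaling, 28 with no trend, 69 with voom, 209 with the covariate, 17 among mutants 1 and 2 and controls 1 and 2, 179 without control 4 and mutant 4, and 142 without control 4, mutant 3 and mutant 4. Without control 4 it was 134 with voom, 17 with no trend, 172 with total count scaling and 107 with the covariate, and with controls 1, 2 or 3 or mutants 1, 2 or 3 also left out it was 11, 276, 8, 156, 72 and 20. The causes were not tested. Flrt3 turned from −0.084 to 0.048 with total count scaling, and the other 8 members tested kept their sign in every fit that gave a value. Kl fell below the filter in 2 fits. Klb, testable only with lower filters, had a log2 fold change of 0.62 (limma adjusted p = 0.862 and 0.893).

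With the replicate number as a block, 133 genes and 0 members were called. Deviations of same-numbered libraries correlated at 0.266, 0.0983, −0.126 and 0.348, and mutants 2 and 3 correlated best with another number, so the numbers were not taken as pairs. Depth limits low genes in control 4 most, where Flrt1 had 68 estimated counts and Kl 7.61.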

Other observations

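Receptor tyrosine kinases outside the FGF family were measured in the same fit. Of 22 such genes 0 passed over 8 libraries and 1, the macrophage receptor Csf1r, rose without control 4 (0.56, SE 0.097, limma adjusted p = 0.0329; named after its values were seen), with a median log2 fold change of 0.23 (0.12 without control 4). Met, the receptor for hepatocyte growth factor, averaged 1401 ± 76.5 normalized counts in controls against 1047 ± 94.6 in mutants (SD, n = 4 each), and its log2 fold change was −0.42 with SE 0.090 (limma adjusted p = 0.101). Tie1, an endothelial receptor, had 3430.4 ± 597 and 4979.5 ± 329 (0.55, SE 0.12, limma adjusted p = 0.104). Groups did not overlap for 7 of the 22 (Met, Tie1, Tek, Csf1r, Epha4, Flt4 and Ret), against 8.6% of all genes tested. The 22 include 4 genes of the endothelial marker list (Kdr, Flt1, Tek and Tie1), of which Kdr and Flt1 overlapped between the groups. They also include the macrophage marker Csf1r, the stromal markers Pdgfra and Pdgfrb, and the ureteric tip marker Ret. Ret was lower in every mutant than in every control (−0.77, SE 0.24, limma adjusted p = 0.237). Summed endothelial and macrophage markers were higher in every mutant than in every control. Summed ureteric tip markers, with Ret and the removed gene Etv4 included, were lower. The part of these cell types in the kinase values was not tested.

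Of 4 cell adhesion molecules that bind FGF receptors, 0 passed with or without control 4. L1cam, a cell adhesion molecule of neurons and the collecting duct, averaged 594 ± 17.3 normalized counts in controls against 796 ± 97.4 in mutants, without overlap (log2 fold change 0.41, SE 0.11, limma adjusted p = 0.161). Cdh2, N-cadherin, had 4296 ± 1156 and 3251 ± 619 (−0.38, SE 0.20, limma adjusted p = 0.498), or −0.55 (limma adjusted p = 0.140) without control 4. In the authors' deposited table, whose means match the libraries without control 4, the log2 fold change of Cdh2 was −0.54, with an adjusted p of 0.0163.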
